A study of Saccharomyces cerevisiae with 6 samples.

Results

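Ty elements are the retrotransposons of *Saccharomyces cerevisiae*, and their Gag-Pol genes encode both the coat protein of the virus-like particle (Gag) and the enzymes that copy and insert the element (protease, integrase and reverse transcriptase). The 41 Gag-Pol genes of the Ty1, Ty2, Ty3 and Ty4 families were chosen by their systematic names. All 41 were found among the 7445 features of a table of RNA-Seq counts: 31 belong to Ty1, 6 to Ty2, 2 to Ty3 and 2 to Ty4. The families of 40 of them follow from the element annotated around the gene, and YLR035C-A, with no element annotated, was placed in Ty1 because its nearest copy was the Ty1 gene YER160C (99.74% identity). The table holds 5 further Gag-Pol rows (4 Ty2, 1 Ty4) that are not among the 41, whose values are given beside the families they belong to.

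RNA was measured in 6 cultures of 1 budding yeast strain, PDW2798, of the W303 background, grown in YPDA at 25 °C. Every culture, controls included, carries RIO1-AID::KanMX4, which fuses the atypical kinase Rio1 to an auxin-inducible degron, and PADH1-OsTIR1-9myc::URA3, which expresses the rice F-box protein that directs degron-tagged proteins to degradation once auxin is added. Mock treatment for 1 h was given to 3 cultures, and the other 3 received 500 µM auxin for 1 h; the methods of the study lower the auxin dose part way through. The labels call the cultures biological repeats, and no untagged strain treated with auxin was analysed here, so effects of auxin and of Rio1 depletion cannot be told apart.

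A Ty element is transcribed from 1 long terminal repeat to the other by RNA polymerase II, and its RNA serves both as the messenger for Gag and Gag-Pol and as the template for reverse transcription. Gag-Pol is made only when the ribosome shifts forward by a base at the end of the gag frame, so that most translation yields Gag alone. Ty1 RNA is abundant and long-lived in haploid cells, its transcription is driven by the mating and filamentation factors Ste12 and Tec1 with the SAGA and SWI/SNF complexes, and its integrase favours sites upstream of genes transcribed by RNA polymerase III. Ty3 is known for its induction by mating pheromone, and Ty2 and Ty1 are close relatives with exchanged segments.

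The joint between the 2 reading frames is the feature that makes these genes Gag-Pol genes. It is shown for each family with the heptamer at the shift in capitals, 5′ to 3′ on the coding strand, from the R64 reference. Of the 41 genes, 39 are annotated as 2 joined coding segments; YAR009C and YLR035C-A are single segments without a joint. The Ty1 joint had 3 versions, held by 13, 14 and 2 copies, and each of the other families had 1. All 37 joints of Ty1, Ty2 and Ty4 held the same heptamer, and both Ty3 joints held another.
Ty1, 13 copies, for example YBL005W-B (chrII:222620-222650): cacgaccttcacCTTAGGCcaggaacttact
Ty1, 14 copies, for example YNL054W-B (chrXIV:520746-520776): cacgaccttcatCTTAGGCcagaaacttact
Ty1, 2 copies, for example YDR098C-B (chrIV:649806-649836): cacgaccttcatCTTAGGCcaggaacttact
Ty2, 6 copies, for example YCL019W (chrIII:86380-86410): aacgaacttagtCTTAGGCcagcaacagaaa
Ty3, 2 copies, for example YGR109W-B (chrVII:708450-708480): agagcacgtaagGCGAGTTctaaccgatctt
Ty4, 2 copies, for example YJL113W (chrX:198987-199017): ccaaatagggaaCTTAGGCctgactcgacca

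How much RNA can be credited to a single copy depends on how far its sequence differs from the others. The authors counted with STAR, whose gene counts by their documented rule keep a read pair only if it aligns to 1 place and overlaps 1 gene. The table's totals are several times the number of mapped read pairs that the study states for a culture, so a count may not stand for 1 such pair; the reason was not tested, and nor was the treatment of pairs that align to several places. The 37 Ty1 and Ty2 copies were between 96.96% and 99.97% identical to their nearest copy (median 99.39%). The gag-only gene nested at the start of 37 of the members had 0 counts in all 6 cultures in all 37 cases, so the counts of these 37 come from the part of each gene beyond gag. In 2 elements the gag gene is annotated ahead of the Gag-Pol gene without overlap, and there too few read pairs were counted: YAR010C, ahead of YAR009C, had 8 to 17 counts, and YJL114W, ahead of YJL113W, had 35 to 71. The strain is W303 and the reference is S288C, and which of the reference copies PDW2798 carries cannot be told from these counts.

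A pair of tandem Ty1 copies on chromosome X shows how the counts split. YJR027W (chrX:472760-478028, plus strand) and YJR029W (chrX:478344-483612, plus strand) are separated by 315 bp and differ at 164 of 3946 aligned bases of their counted parts. Their most different stretch of 60 bases is printed with the 19 bases that differ in capitals. Reads across it can be assigned to 1 version or the other. Other copies share each version, so the stretch alone does not place a read at 1 copy.
YJR027W (chrX:477063-477122): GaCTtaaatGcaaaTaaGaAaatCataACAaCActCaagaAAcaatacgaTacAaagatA
YJR029W (chrX:482647-482706): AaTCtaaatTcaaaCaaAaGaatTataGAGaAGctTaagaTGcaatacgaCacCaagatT

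YJR027W had 77506, 81439 and 67355 counts in the mock cultures and 66279, 63433 and 62185 in the auxin cultures. YJR029W had 578, 627 and 688 counts in the mock cultures and 535, 583 and 544 in the auxin cultures. The downstream copy thus had far fewer counts in every culture, and it has no window of 100 bases that occurs once in the reference, whereas YJR027W has 234. The YJR027W version of this stretch occurs unchanged in 21 of the 31 Ty1 copies and in 5 of the 6 Ty2 copies, the remaining Ty2 copy, YBL100W-B, differing by 1 base. The YJR029W version, allowing 1 difference, occurs in 7 Ty1 copies, YBL005W-B and YMR045C among them. Another version, 11 differences from the first and 10 from the second, occurs in 3 Ty1 copies.

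The same split was seen in Ty2, where YCL019W (chrIII:85102-90415, plus strand) and YFL002W-A (chrVI:138204-143517, plus strand) differ at only 10 of 3997 aligned bases. The stretch of 60 bases with most of these differences holds 3, in capitals.
YCL019W (chrIII:88145-88204): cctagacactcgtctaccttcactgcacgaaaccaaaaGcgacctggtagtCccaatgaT
YFL002W-A (chrVI:141247-141306): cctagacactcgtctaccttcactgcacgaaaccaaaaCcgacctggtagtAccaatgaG

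YCL019W had between 50911 and 67946 counts over the 6 cultures, and YFL002W-A had between 354 and 482. YFL002W-A has no unique window of 100 bases and YCL019W has 203.

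Over all members, 30 of 41 had at least 1 window of 100 bases (the read length) that occurs once in the reference, with a median of 149 windows per gene over the 41. The 11 members without any held 4.63% of the mock Ty counts, and 1 of them, YGR027W-B, had 21395 to 27291 counts. Windows of 200 bases, closer to what a read pair spans, left 0.659% of the mock Ty counts at members without one. Across the 41 genes the mock count and the number of unique windows of 100 bases gave a Spearman rho of 0.41, a description over copies that share sequence and libraries. Per unique position, the mock counts of the 26 Ty1 and Ty2 copies with such a window ranged from 0.33 (YBR012W-B, 468 positions) to 322 (YJR027W, 234 positions), with a median of 37.4. Copies with many unique windows and few counts therefore lay beside copies with few windows and many counts.

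**Figure D1:**
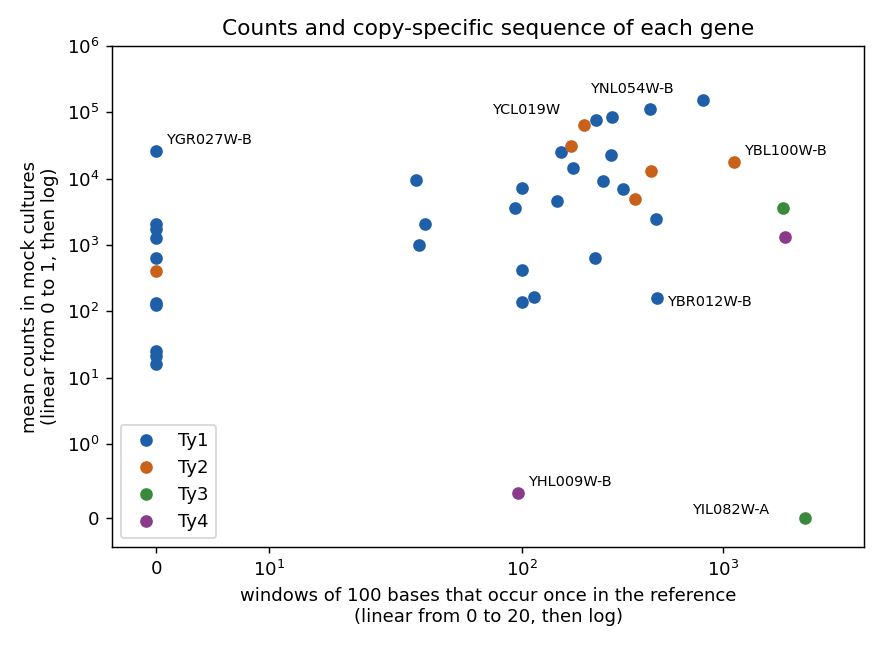
Mean counts of each of the 41 genes in the 3 mock cultures (vertical axis, linear from 0 to 1 and log above) against the number of 100-base windows that occur once in the reference (horizontal axis, linear from 0 to 20 and log above), coloured by family. YGR027W-B has 24562 to 27291 mock counts at 0 windows, whereas the Ty3 gene YIL082W-A has 2526 windows and 0 counts.

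Counts were concentrated in few genes. In the mock cultures, YNL054W-B alone held 21.7% of all Ty counts, the top 3 copies held 49.6%, the top 5 held 69.5% and the top 10 held 87.0%. A mean of at least 1000 counts over the 6 cultures was reached by 26 members and at least 10000 by 12. YIL082W-A had 0 counts in every culture. The members together took 0.583% to 0.628% of all counts in the mock cultures and 0.493% to 0.524% in the auxin cultures, and these ranges did not overlap.

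**Figure D2:**
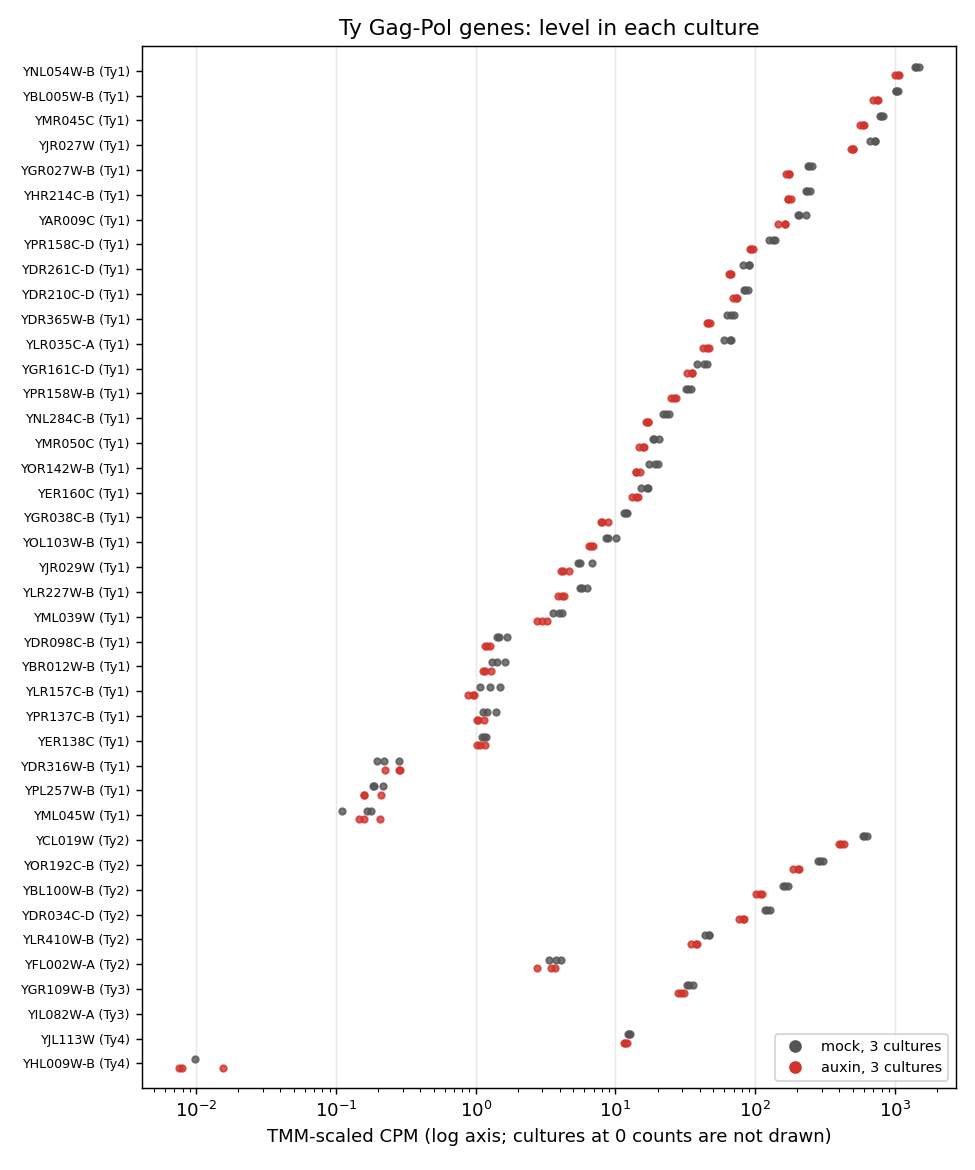
Level of each of the 41 genes in each culture in TMM-scaled CPM (counts per 1000000 counts of the library, log axis), with families grouped and mock cultures in grey, auxin cultures in red. In the copies of higher count the 3 auxin points of Ty1 and Ty2 lie left of the 3 mock points, for example YNL054W-B at 1004 to 1068 against 1386 to 1472 CPM, and YIL082W-A has no points because it had 0 counts.

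Whether Ty RNA changed upon auxin was tested with edgeR's quasi-likelihood test on all 6397 features with enough counts, with Benjamini-Hochberg adjustment over all of them and a call at an adjusted p of at most 0.05. Fold changes are log2 values of auxin against mock after TMM scaling, with which the median change of all features was 0.00. Of the 39 members tested, 32 (82.1%) fell, 0 rose and 7 did not pass. At an unadjusted p under 0.05 also 0 were higher, and DESeq2 called 31 lower and 0 higher. Among all features 38.5% were called lower, 38.5% higher and 77% in either direction. The median log2 fold change of the 39 was -0.43, against 0.00 for all features. No member reached a log2 fold change of 1 in size, whereas 10.3% of all features did so with a call. The ranges of the 2 groups did not overlap, with auxin lower, in 33 of the 39 members, against 39.3% of all features, and they overlapped in the other 6. Members share reads and sequence, so these counts do not stand for independent observations.

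Scaling by total counts alone raised the median log2 fold change of all features by 0.25. It left 20 members lower (background 16.8%) and made 1 higher (background 64.6%). The 20 comprised 16 Ty1 and 4 Ty2 copies, and the 1 that was higher was the Ty4 gene YJL113W. Among the 32, the calls of YBR012W-B, YDR098C-B and YLR157C-B were lost when 1 or another culture was left out, and 29 of the 32 were lower with each culture left out in turn. RIO1 mRNA itself lay at 19.8, 21.9 and 22.8 CPM in the mock cultures and 40.9, 39.4 and 42.7 CPM in the auxin cultures (log2 fold change 0.93, SE 0.05, edgeR adjusted p = 1.8e-07). The degron acts on the protein, so this mRNA value does not measure the depletion.

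**Figure D3:**
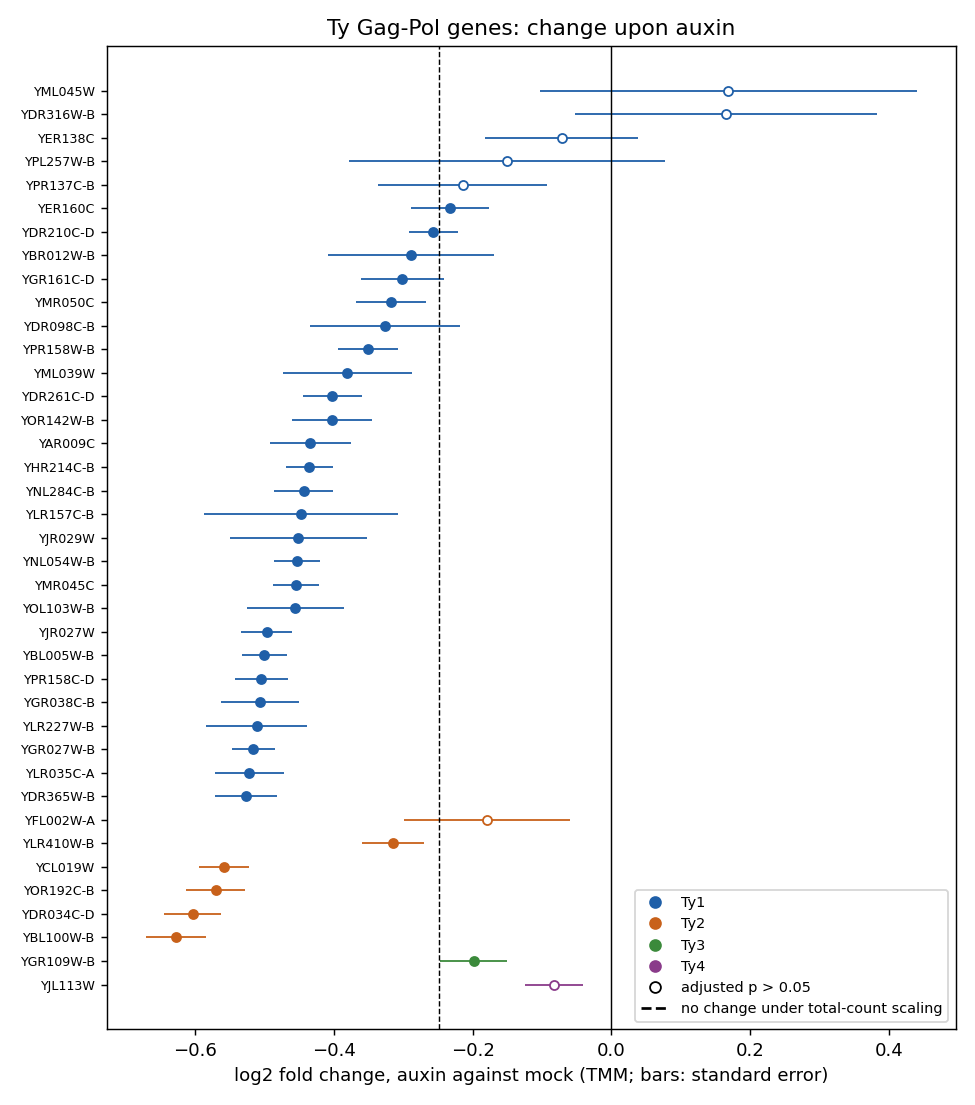
Log2 fold change of auxin against mock with its standard error for the 39 tested genes, by family, with filled points for an adjusted p of at most 0.05 and open points otherwise. The solid line is no change after TMM scaling and the dashed line, at -0.25, is where no change lies when cultures are scaled by total counts; most Ty1 and Ty2 copies lie left of both, and the Ty3 and Ty4 genes lie between them.

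In Ty1, 26 of 31 copies fell, with a median log2 fold change of -0.43. YNL054W-B (chrXIV:519456-524706, plus strand), the Ty1 copy with the most counts and 795 unique windows, lay at 1472, 1386 and 1415 CPM in the mock cultures and 1050, 1068 and 1004 CPM in the auxin cultures. The auxin cultures were all below the mock cultures, with a log2 fold change of -0.45 (SE 0.03, edgeR adjusted p = 1.1e-06). YBL005W-B (chrII:221330-226598, plus strand) lay at 1053, 1013 and 1022 CPM in the mock cultures and 738, 749 and 696 CPM in the auxin cultures. Its groups did not overlap either, and it fell by 0.50 on the log2 scale (SE 0.03, edgeR adjusted p = 4.5e-07). YMR045C (chrXIII:357359-362627, minus strand) lay at 821, 785 and 788 CPM in the mock cultures and 592, 598 and 558 CPM in the auxin cultures, a log2 fold change of -0.45 (SE 0.03, edgeR adjusted p = 9.9e-07).

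All 19 Ty1 copies with a mean of at least 1000 counts were called lower, with log2 fold changes between -0.53 and -0.23. Over all features the share called lower was 38.5%, and no share was taken for features of like count. With total-count scaling 16 of the 31 Ty1 copies were lower, and YER160C, 1 of the 19, was at 0.01 and not called. The copy with the largest decrease was YDR365W-B (chrIV:1206997-1212265, plus strand), at 70.7, 66.8 and 62.4 CPM in the mock cultures and 45.7, 47.8 and 45.2 CPM in the auxin cultures (log2 fold change -0.53, SE 0.04, edgeR adjusted p = 3e-06). At the other end was YML045W (chrXIII:184461-189729, plus strand), with 12, 20 and 17 counts in the mock cultures and 21, 26 and 19 in the auxin cultures. Its groups overlapped, its log2 fold change of 0.17 (SE 0.27, edgeR adjusted p = 0.58) was smaller than its error, and without the first mock culture it was -0.02.

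The Ty1 and Ty2 copies that did not pass shared a lack of unique sequence and low counts. The 6 Ty1 and Ty2 members past filtering but not past the threshold were YDR316W-B, YER138C, YML045W, YPL257W-B and YPR137C-B of Ty1 and YFL002W-A of Ty2. All 6 lack a unique window of 100 bases, and their mean counts ranged from 19.2 to 411. All 26 Ty1 and Ty2 copies with such a window were called lower, as were 5 of the 11 members without one. The share called lower over all features was 38.5%. Of the 26, YBR012W-B, YDR098C-B and YLR157C-B had mean counts of 155, 160 and 129. Their calls were lost when 1 or another culture was left out. The uncalled YER138C and YPR137C-B had similar mean counts, 132 and 135. Whether unique sequence matters apart from the number of counts was not tested. Whether counts at these 6 genes were assigned from other copies was not tested.

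The shares of the single copies in the Ty1 counts, which need no scaling, overlapped between the groups in 22 of the 31 copies, were higher in every auxin culture in 7 and lower in 2, YBL005W-B and YGR027W-B. The shares are parts of the same sum, so the copies are not independent, and no background was taken for these numbers. YNL054W-B took 27.0% ± 0.299 (SD, n = 3) of the Ty1 counts in the mock cultures and 27.2% ± 0.0751 in the auxin cultures, and the groups overlapped. YBL005W-B took 19.51% ± 0.147 and 19.02% ± 0.148, with the auxin cultures all lower. YMR045C took 15.1% ± 0.0367 and 15.2% ± 0.106, and YJR027W took 13.3% ± 0.561 and 13.0% ± 0.0996, with overlapping groups for both. YGR027W-B took 4.62% ± 0.0449 and 4.46% ± 0.0398. Among the copies whose share was higher, YDR210C-D took 1.64%, 1.61% and 1.61% in the mock cultures and 1.88%, 1.88% and 1.86% in the auxin cultures. By version of the stretch shown above, the 21 copies with the YJR027W version held 56.1% of the Ty1 mock counts and had a median log2 fold change of -0.38, and the 7 copies with the YJR029W version held 42.7% and had a median of -0.45. Of these, 16 of 21 and 7 of 7 were called lower. All 5 Ty1 copies that were not called hold the YJR027W version. They lack a unique window of 100 bases and have mean counts of 19.2 to 135. Whether the versions differ apart from this was not tested.

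In Ty2, 5 of 6 copies fell, with a median log2 fold change of -0.56. YCL019W lay at 630, 591 and 601 CPM in the mock cultures and 413, 430 and 395 CPM in the auxin cultures. The groups were well apart, with a log2 fold change of -0.56 (SE 0.04, edgeR adjusted p = 4.5e-07). YOR192C-B (chrXV:704419-709732, minus strand) lay at 305, 292 and 282 CPM in the mock cultures and 201, 206 and 185 CPM in the auxin cultures, a log2 fold change of -0.57 (SE 0.04, edgeR adjusted p = 1.2e-06). YBL100W-B (chrII:29935-35248, plus strand) had the largest decrease of all members, from 173, 162 and 158 CPM to 108, 111 and 101 CPM (log2 fold change -0.63, SE 0.04, edgeR adjusted p = 6.6e-07), and it is also the Ty2 copy with the most unique windows, 1134.

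YFL002W-A, the near copy of YCL019W, lay at 3.76, 3.35 and 4.06 CPM in the mock cultures and 3.66, 3.44 and 2.75 CPM in the auxin cultures. The groups overlapped and the test was not passed (log2 fold change -0.18, SE 0.12, edgeR adjusted p = 0.20). With total-count scaling its sign turned, to 0.07. Among the called Ty2 copies YLR410W-B had the smallest decrease (log2 fold change -0.31), and its share of the Ty2 counts was 3.70% ± 0.150 in the mock cultures and 4.39% ± 0.0610 (SD, n = 3) in the auxin cultures, without overlap. Among the 4 further Ty2 rows, YDR261W-B and YDR210W-B had log2 fold changes of -0.86 and -0.78, both lower than any of the 41, YOR343W-B had -0.46, and YGR161W-B, with 2 to 6 counts, was not tested.

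The Ty3 genes gave a different picture from each other. YGR109W-B (chrVII:707610-712254, plus strand), with 1978 unique windows, lay at 35.6, 33.5 and 32.4 CPM in the mock cultures and 31.1, 29.5 and 27.9 CPM in the auxin cultures. It passed the test (log2 fold change -0.20, SE 0.05, edgeR adjusted p = 0.0039), with the highest auxin culture just below the lowest mock culture, but with total-count scaling the value was 0.05 and no longer passed. YIL082W-A (chrIX:205635-210132, plus strand) had 0 counts in all 6 cultures despite 2526 unique windows; a count of 0 allows up to 3 counts per culture. Whether the strain carries this element was not tested.

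Of the Ty4 genes, YJL113W (chrX:198678-203325, plus strand) lay at 12.3, 12.4 and 12.7 CPM in the mock cultures and 12.1, 11.7 and 11.6 CPM in the auxin cultures. The groups did not overlap, but the difference did not pass the test (log2 fold change -0.08, SE 0.04, edgeR adjusted p = 0.099), and with total-count scaling the gene was called higher at 0.17. YHL009W-B (chrVIII:85909-91318, plus strand) had 0, 0 and 1 counts in the mock cultures and 1, 1 and 2 in the auxin cultures, with 96 unique windows, and was not tested. The further Ty4 row, YPL060C-A, lay at 1.01 to 1.13 CPM in the mock cultures and 0.96 to 1.37 CPM in the auxin cultures, with overlapping groups (log2 fold change 0.14, edgeR adjusted p = 0.40).

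Sums over a family do not depend on how counts were split between the copies that are summed. Counts given to the 5 further rows, or to another family through a shared stretch, are not in them. By the counting rule given above, read pairs in a nested gag gene or aligning to several copies are left out too, which was not tested. The sums therefore describe counted reads, not all RNA of a family. The Ty1 sum was 5278 ± 138 CPM (SD, n = 3) in the mock cultures and 3826 ± 117 in the auxin cultures, a ratio of 0.725. The Ty2 sum was 1236 ± 42.1 and 837 ± 39.4 CPM, a ratio of 0.677. In both families the decrease was several times the spread between cultures, and it kept its direction with total-count scaling (ratios 0.861 and 0.804). The Ty3 sum was 33.9 ± 1.62 and 29.5 ± 1.58 CPM (ratio 0.871) and the Ty4 sum was 12.5 ± 0.175 and 11.8 ± 0.245 CPM (ratio 0.945), and both turned direction with total-count scaling (1.03 and 1.12). With the further rows added the Ty2 ratio was 0.670 and the Ty4 ratio 0.957.

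Ratios between families need no scaling of cultures. Ty2 had 23.6, 23.3 and 23.3 counts per 100 Ty1 counts in the mock cultures and 21.8, 22.3 and 21.5 in the auxin cultures, so that Ty2 was lower relative to Ty1 in every auxin culture. With the further Ty2 rows the ratio was 31.6 ± 0.366 and 29.2 ± 0.582 (SD, n = 3). Ty3 had 0.655, 0.644 and 0.624 counts per 100 Ty1 counts in the mock cultures and 0.803, 0.755 and 0.756 in the auxin cultures. Ty4 had 0.227, 0.239 and 0.244 in the mock cultures and 0.312, 0.300 and 0.314 in the auxin cultures. Both small families were therefore higher relative to Ty1 in every auxin culture, whatever the scaling. The Ty3 counts are all from YGR109W-B and the Ty4 counts almost all from YJL113W, so each ratio rests on a single gene.

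**Figure D4:**
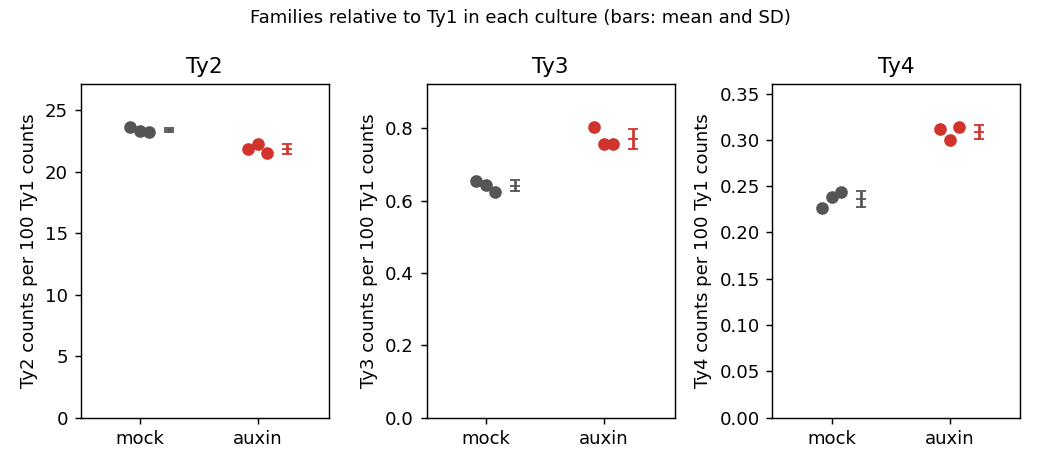
Counts of Ty2, Ty3 and Ty4 per 100 Ty1 counts in each of the 3 mock (grey) and 3 auxin (red) cultures, with the mean and SD beside the points; each vertical axis starts at 0. Ty2 lies at 23.3 to 23.6 in the mock and 21.5 to 22.3 in the auxin cultures, whereas Ty3 and Ty4 are higher in all auxin cultures. The Ty3 counts are all from YGR109W-B and the Ty4 counts almost all from YJL113W.

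Most members share a position in the genome that was not used to choose them. Of the 41, 31 lie in or at an element within 750 bp of a tRNA gene in the reference (23 Ty1, 4 Ty2, both Ty3 and both Ty4), at a median distance of 190 bp over the members, and 5.38% of 5934 other protein-coding genes lie within that distance. Distances of members were taken from the edge of the element where one is annotated, and those of other genes from the gene itself. The shares are therefore not measured alike. tRNA genes are transcribed by RNA polymerase III and are the known targets of Ty integration.

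Genes that act on Ty1 were described from lists of known function. Of 19 activators of Ty1 transcription, all tested, 11 fell and 4 rose (median -0.13), and with total-count scaling 3 were lower and 12 higher. With TMM scaling 38.5% of all features were called lower and 38.5% higher, so the list leaned to lower there. The share called in either direction, 78.9%, was near the 77% of all features. The counts with total-count scaling were near their backgrounds of 16.8% lower and 64.6% higher. GCR1, which encodes an activator of glycolytic genes and of Ty2, lay at 143, 141 and 151 CPM in the mock cultures and 82.1, 82.4 and 82.7 CPM in the auxin cultures, and had the lowest value of the list (log2 fold change -0.82, SE 0.03). GCN4, which encodes the activator of amino acid synthesis genes, was lower with a log2 fold change of -0.38 (SE 0.03). Both were also lower with total-count scaling, as was TYE7. TEC1, whose product binds Ty1 together with Ste12, was called lower at -0.18 (SE 0.04), but turned to 0.07 with total-count scaling. STE12 did not pass (0.06, SE 0.03, edgeR adjusted p = 0.12) and was called higher with total-count scaling, at 0.31. The highest value was that of SWI1, a SWI/SNF subunit gene (0.34, SE 0.03).

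Of 13 restrictors of Ty1 transposition, 6 fell and 5 rose (median -0.11), and with total-count scaling 0 were lower and 7 higher; at an unadjusted p under 0.05 also 0 were lower with that scaling, and DESeq2 with its own size factors called 6 lower. Among all features 38.5% were called lower and 38.5% higher, so the counts with TMM scaling were near the background. With total-count scaling 16.8% of all features were lower, against 0 restrictors, and 64.6% were higher. RTT10, one of the genes named as regulators of Ty1 transposition, had the highest value (0.38, SE 0.02) and RTT105 the lowest (-0.33, SE 0.05; -0.08 and not passed with total-count scaling).

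Of 12 host cofactors of Ty1, 8 rose and 0 fell (median 0.25), against 38.5% called higher and 38.5% called lower among all features. The share called in either direction was 66.7%, against 77% of all features. At an unadjusted p under 0.05 also 0 were lower, and DESeq2 called 0 lower; all 12 were higher with total-count scaling, against 64.6% of all features. BUD22, a ribosome biogenesis gene needed for efficient Ty1 transposition, lay at 70.2, 72.7 and 72.2 CPM in the mock cultures and 110.2, 106.6 and 109.2 CPM in the auxin cultures, the highest change of the list (log2 fold change 0.60, SE 0.03). RPC40, which encodes the RNA polymerase I and III subunit bound by Ty1 integrase, lay at 269, 286 and 295 CPM in the mock cultures and 425, 412 and 412 CPM in the auxin cultures (log2 fold change 0.56, SE 0.03). XRN1, the gene of the cytoplasmic 5′ to 3′ exonuclease, rose by less (0.14, SE 0.02). The lowest value was that of TFC1, a TFIIIC subunit gene, at -0.06 (SE 0.03, edgeR adjusted p = 0.087; 0.18 with total-count scaling).

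Of 9 pheromone response genes, the kind of gene Ste12 acts on, 7 rose and 0 fell (median 0.23); at an unadjusted p under 0.05 and with DESeq2 0 were lower, and with total-count scaling all 9 were higher. Among all features 38.5% were called higher and 38.5% lower, and 64.6% were higher with total-count scaling. The share of the list called in either direction, 77.8%, was near the 77% of all features. PRM1, which acts in mating membrane fusion, lay at 3.19, 3.23 and 3.28 CPM in the mock cultures and 5.58, 5.98 and 5.79 CPM in the auxin cultures (log2 fold change 0.84, SE 0.07). GPA1, the G protein alpha subunit gene, was lowest at -0.04 (SE 0.04, edgeR adjusted p = 0.37; 0.21 with total-count scaling). STE12 and FUS3 are each on 2 of the lists.

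The cells expressed the genes of 1 mating type. The 5 a-specific genes (MFA1, MFA2, STE2, STE6 and BAR1) summed to 1946 to 2045 CPM per culture, whereas the 3 alpha-specific genes (MF(ALPHA)1, MF(ALPHA)2 and STE3) summed to 2.35 to 2.99 CPM. Total counts were between 110119744 and 125303818 per culture, and TMM factors were 0.902 to 0.928 in the mock cultures and 1.09 in each of the auxin cultures, so the composition of the libraries differed between the groups.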

How the data were processed

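RNA-Seq of 3 mock- and 3 auxin-treated cultures was used. The authors removed rRNA, made directional libraries, sequenced read pairs of 100 bases, filtered them with Trimmomatic, aligned them with STAR to sacCer3 (R64) and deposited the STAR gene counts, raw. The annotation release and any removal of duplicates are not given in the sources used here. A protocol field names auxin for all 6 cultures; titles and the treatment field set the groups. Columns were assigned to cultures from repeat number and treatment letter.

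From the deposited counts, the change upon auxin was fitted by edgeR 4.0.16 under R 4.3.3, with TMM scaling after filterByExpr and a quasi-likelihood test on the condition. The pipeline was tested on simulated data: 97 of 100 features changed by 0.4 (log2) were recovered, with 12 false calls among 6388 features. Few features were changed there, as many up as down, so the simulation does not test the choice of scaling. Changes were set only in features above a CPM floor, and all features had the same dispersion. The recovery therefore does not cover the members of lowest count, such as YML045W. Other settings tried were total-count, RLE and upper-quartile scaling, 2 other filters, a replicate block, DESeq2 1.42.0 and leaving out each culture. Unique windows were counted by exact matches to the R64 reference on both strands. Identity to the nearest copy came from BLAST 2.17.0, and pairs of copies were aligned with MAFFT 7.526. Same-numbered cultures deviated with r = 0.16, -0.03 and 0.25, so numbers were not taken as pairs.

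Values are given for the 3 highest-count copies of Ty1 and Ty2, the Ty3 and Ty4 genes, the extremes of Ty1, Ty2 and each list, and 7 list genes chosen by name; other members and rows were named after their values were seen. Members and lists were chosen with earlier results of these data known.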

Additional observations from a re-analysis of the deposited data

How the results depend on the processing

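With total-count scaling 20 members were lower and 1 higher, 3 activators were lower and 12 higher, and 0 restrictors were lower, and the family ratios were 0.861 (Ty1), 0.804 (Ty2), 1.03 (Ty3) and 1.12 (Ty4). That scaling turned the log2 fold changes of 7 tested members from negative to positive: YER160C (0.01), YER138C (0.18), YPL257W-B (0.10), YPR137C-B (0.03), YFL002W-A (0.068), YGR109W-B (0.049) and YJL113W (0.17). Among the list genes given with values above, it also turned TEC1 (0.065), TFC1 (0.18) and GPA1 (0.21), since it raises every value by about 0.25. With RLE or upper-quartile scaling, DESeq2, other filters or each culture left out, 29 to 32 members were lower and 0 higher; YML045W ranged from -0.020 (without the first mock culture) to 0.30 over the cultures left out. Leaving out a culture gave 0 to 1 cofactors lower (1 without mock replicate 3). With the replicate block 32 members were lower and 0 higher and STE12, on the activator and pheromone lists, became a call (0.06), as did the restrictor RAD27, without every culture correlating best with its own number. Windows of 200, 300 and 500 bases (the latter 2 chosen after seeing the data) left 0.659%, 0.281% and 0.259% of mock Ty counts at members without a unique window. Depth limits the copies with under about 100 counts, where standard errors exceeded 0.2.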
